A study of Mus musculus with 4 samples.

Results

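Knockdown of the long noncoding RNA Ntoco was compared with a control short hairpin RNA (shRNA) in HT22, an immortalised line derived from mouse hippocampal neurons. The comparison used the 2 libraries of cells carrying the Ntoco shRNA and the 2 libraries of cells carrying the control shRNA. It covered the 11846 of 16846 genes that had at least 10 counts in at least 2 of those 4 libraries. The study's other 4 libraries, 2 of cells with an empty vector and 2 of cells overexpressing Ntoco, entered the same statistical model and served as further references. The overexpression sample is titled Lv-Ntoco, while the vector columns are named pcDNA, so how these cells received their constructs is unclear. It is also not stated whether they were handled like the shRNA cells. Polyadenylated RNA was sequenced, and all cells were taken as HT22, although the sample titles number the cells HT22 to HT25. The labels list 1 sample per group and the table holds 2 numbered columns per group, so it is not stated that the libraries came from separate cultures, and the p-values reflect only how these libraries vary. No strain, treatment, dose or time was given for any group. In the column names the shRNA target is abbreviated as AK, which the labels do not explain.

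Long noncoding RNAs are transcripts that are not translated, and many act by binding proteins. An shRNA is expressed as a small hairpin and cut by the cell into a guide strand, which directs the breakdown of RNA that matches it in full. As with microRNAs, the bases near the start of a guide can also pair with short matching sites, mostly in 3′ untranslated regions (UTRs), and lower those mRNAs. The labels name 1 Ntoco shRNA. The series title places Ntoco beside the RNA-binding protein Hnrnpab, NF-kB and the iron-siderophore-binding protein Lcn2, in ferroptosis, an iron-dependent death by lipid peroxidation.

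The genes that were lowest in the knockdown against the control often held the 7 bases CTTAAGA in the 3′ UTR. Of the 8 genes that DESeq2's Wald test called lower, 7 held it, and their sites are shown because the comparison with the rest of the transcriptome below turns on them. Each window has 29 bases of the mRNA strand, 5′ to 3′, taken from the GENCODE M21 transcripts, with the 7 bases in capitals. Coordinates are those of the capitals on GRCm38, and all lie in the 3′ UTR of the named gene.
Tmx1, first site (chr12:70466320-70466326, plus strand): tgaaaatatgaCTTAAGAatattatgatg
Tmx1, second site (chr12:70466711-70466717, plus strand): tatgttgctgaCTTAAGAagtttttataa
Ssx2ip (chr3:146438909-146438915, plus strand): cagtcgtctaaCTTAAGAtgctcagagtt
Cerk (chr15:86141494-86141500, minus strand): tgtggaaattaCTTAAGAaaaattcgaca
Smg5 (chr3:88362204-88362210, plus strand): ctttggctgtgCTTAAGAggagctggctt
Fkbp10 (chr11:100424646-100424652, plus strand): aggtctctcatCTTAAGAagttccctcta
Myo1c, first site (chr11:75673196-75673202, plus strand): catattcctgcCTTAAGAatgtcctttta
Myo1c, second site (chr11:75673356-75673362, plus strand): gggggaaaagtCTTAAGAgtttggaagtc
Nceh1, first site (chr3:27242605-27242611, plus strand): gtctgttgttaCTTAAGAatactcctggc
Nceh1, second site (chr3:27242689-27242695, plus strand): tttaataatagCTTAAGAtgaccagcaat

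The depth was even, at 18633842 to 19401827 counts in the 4 shRNA libraries. There were 0 rows named Ntoco, so the level of Ntoco is unknown in every library and could not serve as a check of the labels. Between the 2 knockdown libraries the median absolute log2 difference over genes was 0.36, against 0.23 between the 2 control libraries. By the same measure knockdown library 1 lay nearest to control library 1 (0.22) and knockdown library 2 nearest to empty vector library 1 (0.27). Results are therefore given per library, in CPM (counts scaled to library size and composition), beside log2 ratios from the edgeR model with their standard error (SE).

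The cells matched the neuronal label weakly. Of 28 markers of neurons and synapses, 18 were in the table and 5 passed the count minimum, with summed levels of 62.7 and 70.4 CPM in the controls against 59.8 and 50 CPM in the knockdown. The synaptic vesicle protein gene Syt1, the glutamate receptor gene Gria1 and the neurofilament gene Nefl had 0 counts in the 4 libraries, which allows up to 3 counts in 75906390 (0.0395 CPM). The kinase gene Camk2a was the largest part of the neuronal sum, with 43.2 and 41.7 CPM in the controls against 42.0 and 23.9 CPM in the knockdown. Fibroblast and meningeal markers were far higher, with sums of 8660 and 6910 CPM in the controls against 10200 and 3240 CPM in the knockdown, and 2 of them, Lum and Fap, had 0 counts. Those sums were the highest and the lowest of the 4 in the 2 knockdown libraries, and their part in other differences between these libraries was not tested. Col1a2 was the largest member of that list (2640 and 2680 CPM in the controls), while Dcn, Mgp, Postn and Col3a1 had at most 0.828 CPM there. Control sums also exceeded the neuronal one for endothelial and pericyte (697 and 602 CPM), oligodendrocyte lineage (384 and 272 CPM) and astrocyte markers (166 and 187 CPM). Their largest members were Eng (403 and 326 CPM) and Pdgfrb (241 and 256), Cspg4 (312 and 193), and Gja1 (67.9 and 64.2) and Sox9 (33.1 and 56.8). Other members of these lists, Pecam1, Cdh5, Sox10, Mag, Gfap and Slc1a3, had at most 0.725 CPM in the controls. The sums therefore do not show that such cells were present. Microglial markers summed to 24.1 and 24.1 CPM in the controls against 20.8 and 20.9 CPM in the knockdown, and the leukocyte marker Ptprc had 0 counts. In such bulk samples, fewer cells of a type and less RNA per cell cannot be told apart.

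Txnip, C3, Ctso and C1s1 were the genes with the smallest p among those higher in the knockdown, and Tmx1, Ssx2ip, Cerk, Tbcd and Smg5 among those lower. edgeR's quasi-likelihood test called 0 of 11846 genes (0%, Benjamini-Hochberg adjusted p under 0.05), with a lowest adjusted p of 0.431. DESeq2 called 7 genes higher (0.0591%) and 8 lower (0.0675%). At an unadjusted p under 0.05 edgeR had 375 genes, 181 higher (1.53%) and 194 lower (1.64%). That number was 165 without control library 1 and 1600 without knockdown library 1, where edgeR called 1 gene, Txnip. In each such fit the group left with 1 library has no spread of its own and is assumed to vary like the others. Both knockdown libraries lay above both controls for 1799 genes (15.2%) and below both for 1666 (14.1%). Over all genes tested, the median log2 ratio was 0.005.

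The vector and overexpression libraries allowed a second reading: whether the knockdown or the control stands apart from the other 6 libraries. Both knockdown libraries were above all 6 others for 384 genes (3.24%) and below all 6 for 340 (2.87%). Both control libraries were above all 6 others for 547 genes (4.62%) and below all 6 for 508 (4.29%). The 15 genes with the smallest p in each direction, among those whose groups did not overlap, differed in this respect. Of the 15 lower genes, 14 had both knockdown libraries below all 6 others, and the controls were above all 6 for 7. Of the 15 higher genes, 7 had both knockdown libraries above all 6 others, and both controls were below all 6 for 8. These counts describe genes chosen by p in the same libraries and carry no test.

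**Figure D1:**
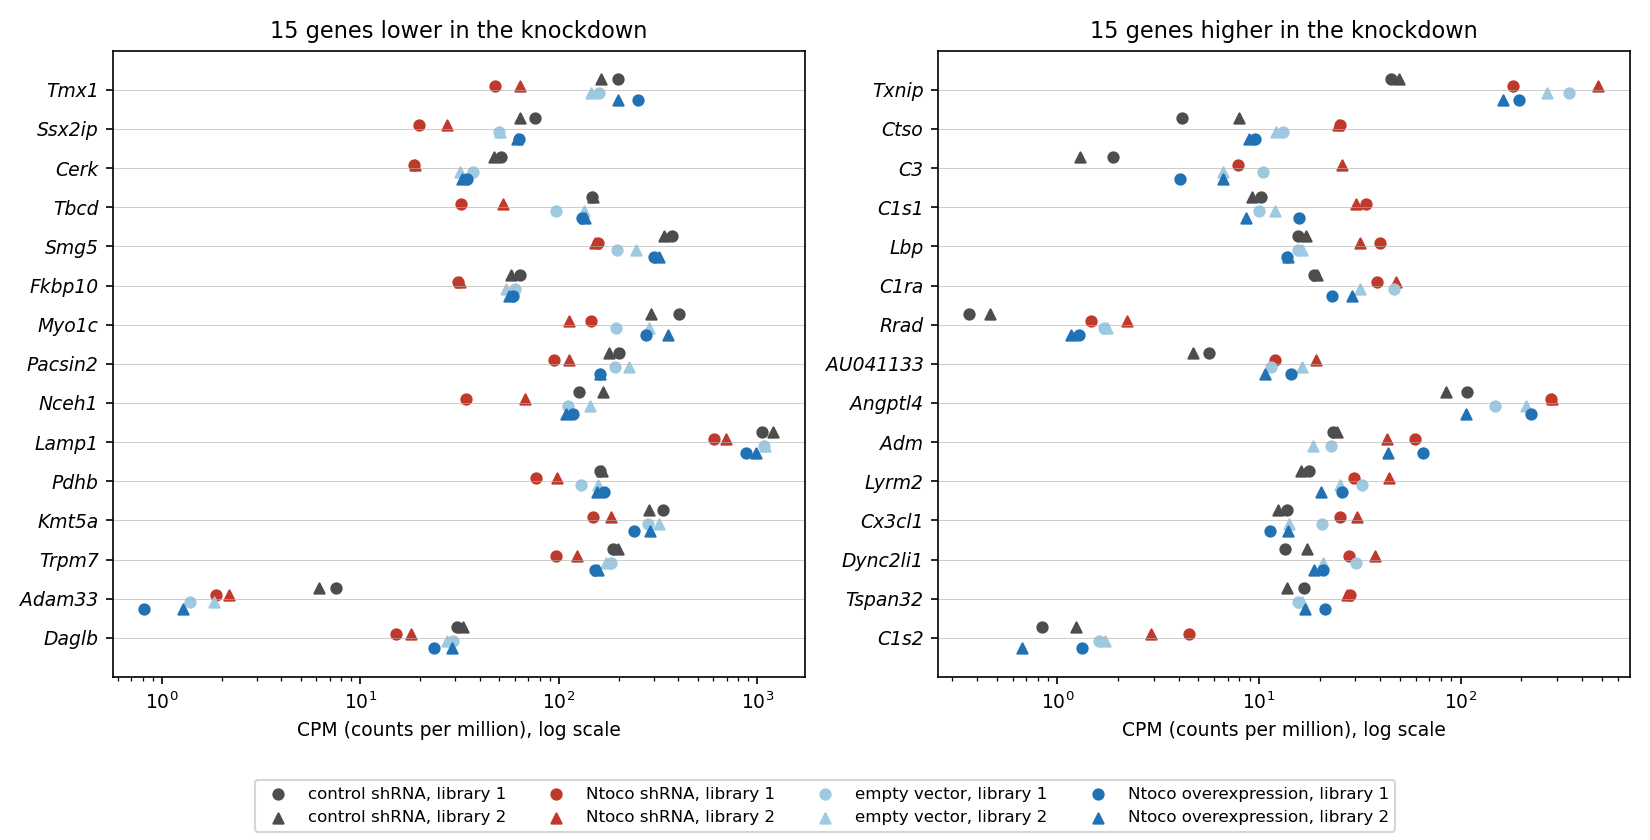
Expression of the 15 lower (left) and 15 higher (right) genes with the smallest p, in CPM on a log axis, 1 point per library, colours for groups and symbols for libraries 1 and 2. Except for Adam33, the knockdown points of the lower genes lie below those of all other libraries, while for Txnip, C3, Rrad and AU041133 it is the control points that lie apart.

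Among the lower genes, Tmx1 encodes a thioredoxin anchored in the membrane of the endoplasmic reticulum that forms and breaks disulfide bonds (Entrez 72736, GRCm38 chr12:70453154-70467624). It had 198 and 162 CPM in the controls, 47.7 and 63.8 CPM in the knockdown, 159 and 146 CPM with the vector, and 250 and 198 CPM with overexpression. Both knockdown libraries were below all others by a wide margin, and the overexpression libraries were among the highest. Its log2 ratio was -1.69 (SE 0.23; edgeR adjusted p 0.431, DESeq2 adjusted p 2.31e-06). The overexpression effect on Tmx1 (log2 0.55, SE 0.22) exceeded the knockdown effect by 2.25 (SE 0.32, DESeq2 adjusted p of the difference 2.24e-05). The related Tmx2 had 92.8 and 89.5 CPM in the controls against 61.0 and 70.7 CPM in the knockdown, while Tmx4 had 12.6 and 15.6 against 19.98 and 18.8 CPM.

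Ssx2ip, a centrosome and cell junction protein, had 75.3 and 63.8 CPM in the controls against 19.8 and 27.3 CPM in the knockdown, with 49.9 to 62.7 CPM in the other 4 libraries. Its log2 ratio was -1.56 (SE 0.22). Tbcd, which folds tubulin (Entrez 108903, GRCm38 chr11:121451991-121617170), had 146 and 148 CPM in the controls against 32.0 and 52.0 CPM in the knockdown. The other 4 libraries held 96.2 to 135 CPM of Tbcd, so the knockdown stood alone, at a log2 ratio of -1.81 (SE 0.27). The Tbcd 3′ UTR of 219 bases held no CTTAAGA, which makes it the 1 gene of the 8 called lower by DESeq2 without the site.

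Cerk, the kinase that phosphorylates ceramide (Entrez 223753, GRCm38 chr15:86139101-86186259), had 51.0 and 46.9 CPM in the controls against 18.5 and 18.8 CPM in the knockdown. The vector and overexpression libraries lay between, at 31.8 to 36.9 CPM, so the Cerk controls were also above all others. Smg5, a factor of nonsense-mediated mRNA decay, had 370 and 338 CPM in the controls against 158 and 152 CPM in the knockdown, at a log2 ratio of -1.19 (SE 0.18). It had 196 and 246 CPM with the vector and 303 and 321 CPM with overexpression. Fkbp10, a collagen chaperone of the endoplasmic reticulum, had 63.7 and 57.6 CPM in the controls against 31.1 and 31.6 CPM in the knockdown. In the other 4 libraries Fkbp10 stayed at 54.1 to 60.4 CPM, close to the control.

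Myo1c, a myosin that links membranes to actin, had 402 and 290 CPM in the controls against 145 and 113 CPM in the knockdown. Nceh1, a cholesterol ester hydrolase, had 126 and 166 CPM in the controls against 33.9 and 67.3 CPM in the knockdown. The lysosomal membrane protein gene Lamp1 was the most abundant of the 15 by CPM, with 1057 and 1203 CPM in the controls against 604 and 692 CPM in the knockdown. On the length-scaled FPKM of the deposited table (which also divides by gene length), Lamp1 had 472 and 559 in the control and 277 and 324 in the knockdown. Trpm7, a cation channel with a kinase domain, had 186 and 199 against 96.6 and 123 CPM, and the histone H4 lysine methyltransferase gene Kmt5a 334 and 283 against 148 and 183 CPM. Pdhb, a subunit of pyruvate dehydrogenase, had 161 and 166 against 76.9 and 98.1 CPM, and the membrane-bending protein gene Pacsin2 201 and 178 against 94.1 and 112 CPM. Daglb, a diacylglycerol lipase, had 30.8 and 32.9 against 15.2 and 17.9 CPM. From Lamp1 to Daglb, these 6 genes had an edgeR adjusted p of 0.993 and DESeq2 adjusted p values between 0.0692 and 0.156.

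Adam33, a metalloprotease, was the exception among the 15. It had 7.49 and 6.21 CPM in the controls against 1.88 and 2.17 CPM in the knockdown, but 0.816 to 1.82 CPM in the vector and overexpression libraries. The 2 controls were the high libraries, and the knockdown was level with the rest.

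The site was counted in the 3′ UTRs of the 11607 genes tested that had one in the annotation, using 1 transcript per gene. It occurred in 1335 of them (11.5%). Among genes lower at an unadjusted p under 0.05, 72 of 192 (37.5%) held it, and among genes higher at that p, 9 of 178 (5.06%). Of the 15 lower genes 11 held it, and of the 15 higher genes 0. Among genes with both knockdown libraries below all 6 others, 108 of 337 (32.0%) held the site, and among those with both above, 30 of 374 (8.02%). The motif was chosen from these data, so these shares are a description with no test.

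Read the other way, 5.39% of genes with the site were lower at an unadjusted p under 0.05, and 0.674% were higher. For genes without it, the shares were 1.17% and 1.65%. With 2 or more sites 20 of 171 genes (11.7%) were lower and 0 were higher. Where a site was followed by A, 52 of 470 genes (11.1%) were lower, against 20 of 865 (2.31%) where none was. That split, like the motif itself, is a description with no test. The shorter strings TTAAGA and CTTAAG without the full 7 bases had lower shares of 1.45% and 1.04%, close to genes with no site. A site located only before the 3′ UTR gave 1.46% lower and 1.46% higher. By non-overlap these genes leaned lower, with 18.2% below both controls and 12.9% above. For all genes with no site in the 3′ UTR those shares were 13% and 15.7%. The reversed 7 bases, AGAATTC, without the site gave 1.34% lower and 2.06% higher.

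Genes with the site had longer 3′ UTRs, with a median of 2556 bases against 884 without it. Among the 3660 genes with 3′ UTRs of 1000 to 2500 bases, 8.16% of those with the site were lower and 1.32% of those without. The shift across all 1335 genes was small. Their median log2 difference from the control mean (on CPM + 1) was -0.09 in knockdown library 1 and -0.03 in library 2, and 0.02 and 0.00 for genes without the site. For sites followed by A, the medians were -0.17 and -0.10. The model median of genes with the site was -0.067 in the knockdown and -0.062 for overexpression against the vector. Without the site these medians were 0.012 and 0, so a median shift of this size was not particular to the knockdown. For sites followed by A they were -0.117 in the knockdown and -0.058 for overexpression. Leaving out knockdown library 1, which raised the number of lower genes to 900, brought the share with the site to 14.6%, with 9.24% among higher genes. Leaving out any 1 of the other 3 shRNA libraries gave 31.6% to 38.3% among lower genes. Whether the guide strand of the shRNA pairs with these sites was not tested, because the hairpin sequence is not given in the sources used here.

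**Figure D2:**
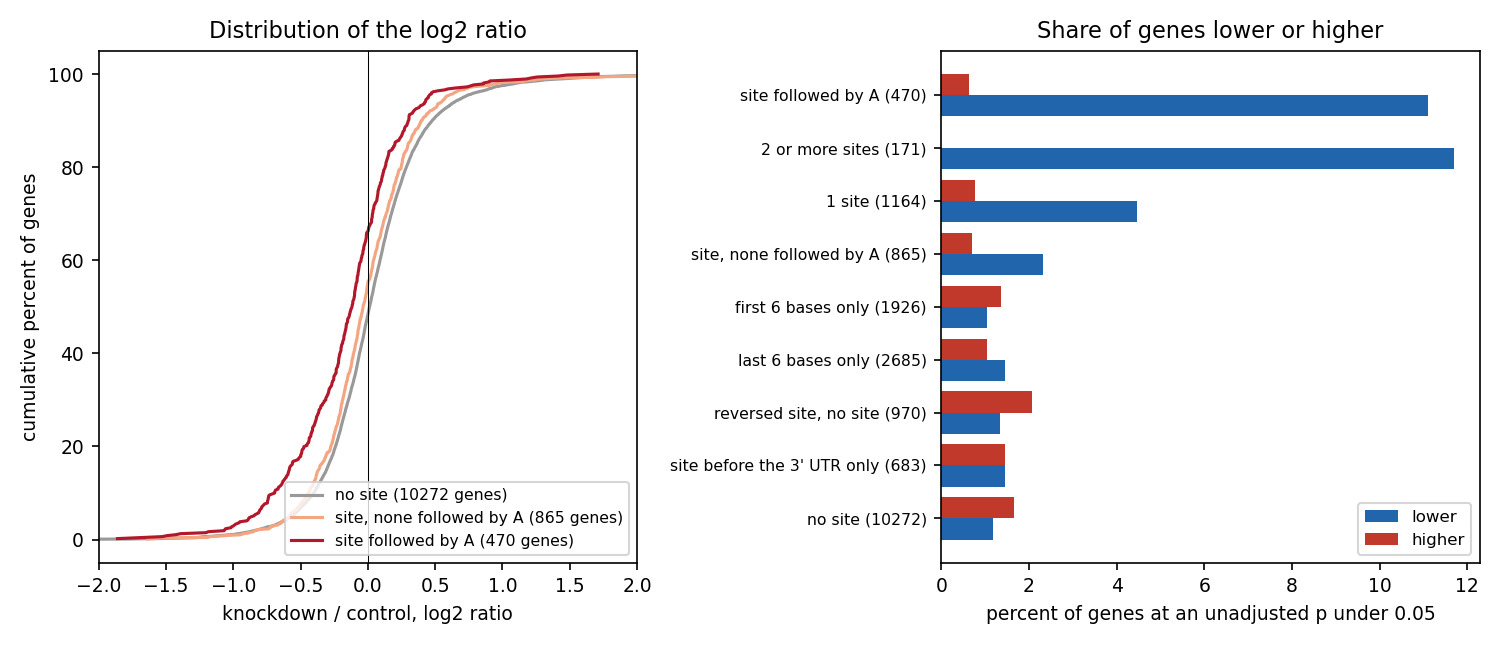
Left, cumulative percent of genes (vertical axis) by knockdown over control log2 ratio (horizontal axis), for genes with no site (10272), with sites but none followed by A (865) and with a site followed by A (470). Right, percent of genes in each class that were lower (blue) or higher (red) at an unadjusted p under 0.05, with the number of genes in parentheses, where the bars for a site followed by A reach 11.1% lower and 0.638% higher.

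Among the higher genes, Txnip encodes a thioredoxin-binding arrestin that limits glucose uptake (Entrez 56338, GRCm38 chr3:96557957-96561857). It had 45.3 and 49.5 CPM in the controls against 183 and 482 CPM in the knockdown, a log2 ratio of 2.81 (SE 0.43, edgeR adjusted p 0.431, DESeq2 adjusted p 1.48e-07). The vector libraries held 346 and 267 CPM and the overexpression libraries 194 and 163 CPM. The 2 control libraries were thus the low ones, and the knockdown lay within or above the range of the rest. Without knockdown library 2 the log2 ratio was 1.94, and without library 1 it was 3.344 (edgeR adjusted p 0.025, with the lone knockdown library assumed to vary like the other groups). Its relative Arrdc2 had 9.38 and 11.3 CPM in the controls against 11.7 and 15.9 CPM in the knockdown. Of the 22 tested thioredoxin, peroxiredoxin and arrestin-fold genes, 3 (Txnip, Arrdc2 and Glrx2) were higher and 1, the thioredoxin reductase gene Txnrd1, was lower in both libraries. Txnrd1 had 635 and 534 CPM in the controls against 397 and 434 CPM in the knockdown. The E-box CACGTG, a palindrome bound by glucose-responsive factors, was looked for from 250 bases before to 50 after the RefSeq start sites. It was in the windows of 1128 of 9480 genes (11.9%), not in that of Txnip and once in that of Arrdc4. Only this exact sequence was searched for, so the count cannot show whether a promoter holds a variant of it.

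The complement genes had the highest list median, 0.69 on the log2 scale over the 16 of 37 listed genes that were tested. Both knockdown libraries were above both controls for 9 of the 16 (56.2%) and below for 1, Cfp (6.25%), beside 15.2% and 14.1% over all genes. C3, the central complement component (Entrez 12266, GRCm38 chr17:57203967-57228136), had 1.89 and 1.29 CPM in the controls against 7.90 and 25.8 CPM in the knockdown. The other 4 libraries held 4.08 to 10.5 CPM of C3, so the controls were below all others. The proteases C1s1, C1ra and C1s2, which cleave the next components of the classical pathway, lie close together on chromosome 6. C1s1 had 10.2 and 9.21 CPM in the controls against 34.0 and 30.3 CPM in the knockdown, and the other 4 libraries had 8.602 to 15.8 CPM, so here the knockdown stood apart. C1ra had 18.8 and 19.4 CPM in the controls against 38.5 and 47.6 CPM in the knockdown, but vector library 1 also reached 46.6 CPM. C1s2 had 0.838 and 1.24 CPM against 4.50 and 2.90 CPM. The other genes higher in both libraries were C1rb, C2, Hc, Cd59a and Clu, named after their values were seen. Reads of the near-identical C1s and C1r copies can have been split in counting. The complement median was 0.43 without knockdown library 2. Against the control mean (CPM + 1), the complement medians were 0.33 and 0.53 in the knockdown libraries and 0.36 and 0.37 with the vector. With overexpression they were -0.15 and -0.09.

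The acute-phase list, secreted proteins of inflammation and their regulators, had a median of 0.46. Of its 15 tested genes, 6 were higher (40%) and 0 lower in both libraries, beside 15.2% and 14.1% over all genes. The 6 higher genes were Lbp, Cp, Cebpd and the receptor genes Il6st, Il1r1 and Osmr. Lbp, which binds bacterial lipopolysaccharide, had 15.6 and 17.1 CPM in the controls against 39.8 and 31.6 CPM in the knockdown. The other 4 libraries had 13.7 to 16.3 CPM, level with the control, and the log2 ratio was 1.12 (SE 0.22, DESeq2 adjusted p 0.014). The copper-binding ferroxidase gene Cp had 42.0 and 61.3 CPM in the controls against 178 and 278 CPM in the knockdown, with 30.7 to 142 CPM elsewhere. The transcription factor gene Cebpd had 9.80 and 13.2 against 22.2 and 40.9 CPM. Lbp, Cp and Cebpd all had an edgeR adjusted p of 0.993, and by DESeq2 the adjusted p was 0.083 for Cp and 0.49 for Cebpd. The acute-phase median was 0.23 without knockdown library 2. Against the control mean (CPM + 1), the acute-phase medians were 0.23 and 0.46 in the knockdown libraries and 0.68 and 0.50 with the vector. With overexpression they were 0.075 and 0.015.

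Ctso, a lysosomal cysteine protease (Entrez 229445, GRCm38 chr3:81932601-81956725), had 4.14 and 7.97 CPM in the controls against 25.3 and 24.7 CPM in the knockdown. The other 4 libraries had 8.94 to 13.2 CPM, so the knockdown was above and the control below all of them. Its log2 ratio was 2.04 (SE 0.34, DESeq2 adjusted p 2.59e-05). Another protease of the list, Ctsk, had 25.1 and 30.9 against 35.9 and 70.0 CPM, but over the 40 tested lysosomal genes the median was -0.02. Of the 40, 7 were higher (17.5%) and 4 lower (10%) in both libraries, beside 15.2% and 14.1% over all genes.

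Angptl4, a secreted inhibitor of lipoprotein lipase, had 107 and 84.5 CPM in the controls against 282 and 284 CPM in the knockdown, at a log2 ratio of 1.56 (SE 0.36, DESeq2 adjusted p 0.0255). The other 4 libraries held 106 to 223 CPM. Of the 31 tested fatty acid oxidation and PPAR genes, 10 were higher (32.3%) and 1, the acyl-CoA dehydrogenase gene Acadl, lower (3.23%) in both libraries. Over all genes tested those shares were 15.2% and 14.1%. The higher ones included the dienoyl-CoA isomerase gene Ech1, with 37.5 and 44.8 against 72.3 and 58.7 CPM, and the carnitine palmitoyltransferase gene Cpt2, with 45.8 and 48.0 against 65.8 and 61.5 CPM. The median of the list was still 0.02, with 0.20 in knockdown library 1 and -0.16 in library 2. The vasodilator peptide gene Adm had 23.3 and 24.3 against 59.5 and 43.1 CPM and was as high with overexpression, at 64.9 and 43.5 CPM. The membrane-bound chemokine gene Cx3cl1 had 13.7 and 12.4 against 25.2 and 30.7 CPM. AU041133, which DESeq2 called higher, had 5.66 and 4.71 against 11.98 and 19.1 CPM, and the other 4 libraries had 10.7 to 16.4 CPM. The GTPase gene Rrad had 0.367 and 0.466 against 1.47 and 2.21 CPM, a low level in every library. Lyrm2, Dync2li1 and Tspan32 complete the 15, with log2 ratios of 1.12 (SE 0.28), 1.09 (SE 0.28) and 0.86 (SE 0.23).

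The difference between the overexpression effect (against the vector) and the knockdown effect was tested as an interaction. edgeR called 0 of 11846 genes (0%, lowest adjusted p 0.65), with 812 at an unadjusted p under 0.05. DESeq2 called 13 genes, 7 with the overexpression effect above the knockdown effect and 6 below. For Txnip the difference was -3.59 (SE 0.58), for C3 -4.07 (SE 0.85), for Ctso -2.50 (SE 0.47) and for Smg5 1.69 (SE 0.26). These genes were chosen by their knockdown effect, which is part of the difference, so its size is no separate evidence. Their overexpression log2 ratios against the vector were -0.78 (SE 0.40), -0.67 (SE 0.58), -0.45 (SE 0.33) and 0.50 (SE 0.18). The overexpression log2 ratio had the opposite sign to the knockdown ratio for 7 of the 15 lower genes and 12 of the 15 higher genes. Among the DESeq2 calls it did so for 6 of 8 lower and 6 of 7 higher genes. Some of these ratios were near 0, such as 0.008 (SE 0.177) for Fkbp10 and -0.04 (SE 0.194) for Cerk. The share of opposite signs over all genes was not counted, so no conclusion is drawn from these counts.

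Many genes differed between the 2 knockdown libraries. In 507 genes library 2 was at least 1 log2 unit above library 1 (CPM + 1), and in 759 it was at least 1 below, against 262 and 126 for the control libraries. Lcn2, the lipocalin of the title, (Entrez 16819, GRCm38 chr2:32384637-32387739), had 14.99 and 16.8 CPM in the controls, 14.3 CPM in the first knockdown library and 906 CPM in the second. The vector libraries had 230 and 66.4 CPM and the overexpression libraries 29.0 and 28.5 CPM. The Lcn2 log2 ratio of 4.86 (SE 1.54, edgeR adjusted p 0.993) was -0.15 without knockdown library 2, so its sign rests on that library. The chemokine genes Ccl20, Cxcl1 and Ccl2 went the same way. Ccl20 had 1.21 and 0.259 CPM in the controls against 1.05 and 63.5 CPM in the knockdown. Cxcl1 had 27.8 and 28.4 against 9.10 and 288 CPM. Ccl2 had 205 and 45.1 against 84.8 and 912 CPM, and 1393 CPM in vector library 2. The interleukin subunit gene Il23a, with 4.87 and 12.1 against 3.45 and 58.6 CPM, was also high in library 2 alone.

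Other genes were lower in knockdown library 2 than in library 1, and the following are among the 10 with the largest such difference. The proteoglycan gene Bgn had 449 and 482 CPM in the controls against 1055 and 97.6 CPM in the knockdown. The collagen-crosslinking enzyme gene Loxl3 had 83.2 and 57.8 against 169 and 15.2 CPM, and the actin-severing protein gene Gsn 293 and 226 against 429 and 55.1 CPM. Egln3, an oxygen-sensing prolyl hydroxylase induced by low oxygen, had 14.3 and 19.98 against 90.3 and 7.14 CPM, and 135 CPM in overexpression library 1. The transcription factor gene Fosb had 27.2 and 242 CPM in the controls against 81.2 and 5.51 CPM in the knockdown, so library 1 lay inside the control range, and the controls differed widely too. Arc, an activity-induced gene, had 31.1 and 75.6 against 93.1 and 5.71 CPM.

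**Figure D3:**
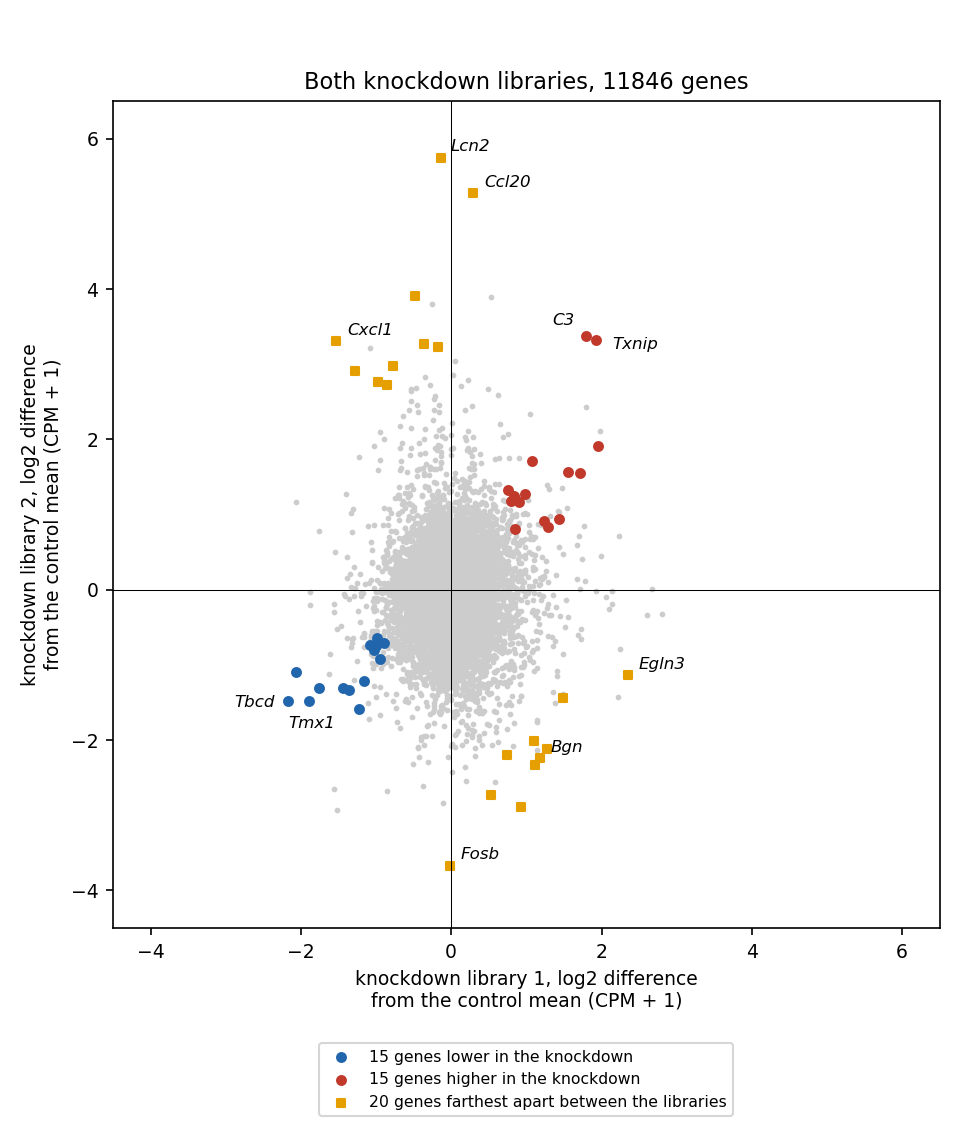
Log2 difference from the control mean (CPM + 1) in knockdown library 1 (horizontal axis) and library 2 (vertical axis), 1 point per gene for 11846 genes. The 15 lower and 15 higher genes lie in the corners where both libraries went the same way, and the 20 genes farthest apart, such as Lcn2 at 14.3 and 906 CPM, lie where only 1 library left the control level or the 2 went opposite ways.

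**Figure D4:**
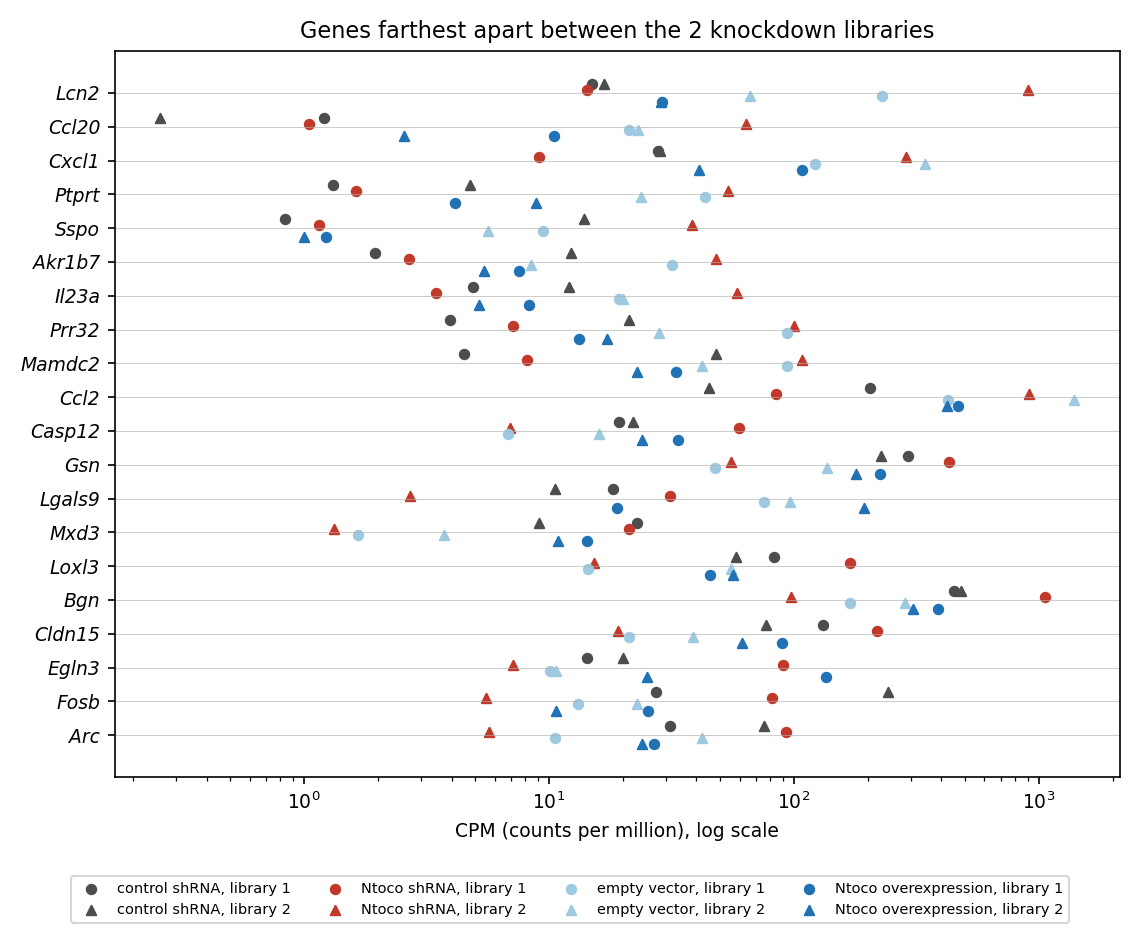
Expression in CPM (log axis) of the 10 genes most above and the 10 most below in knockdown library 2 against library 1, 1 point per library. For most of the upper 10, knockdown library 1 sits near the controls and library 2 near or above the vector libraries, as for Ccl20 at 1.05 and 63.5 CPM.

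List medians also differed between the 2 knockdown libraries. Over 35 genes of cholesterol and fatty acid synthesis the knockdown medians were 0.21 (library 1) and -1.24 (library 2), and the control libraries differed by -0.46 (library 2 minus library 1). Of the 35, 1 (Mylip) was higher and 2 (Scap and Acaca) lower in both libraries. Mitosis and chromosome segregation had -0.05 and -0.98, with 0 of 53 genes higher and 16 lower (30.2%) in both. For 0 of the 53 were both knockdown libraries below all 6 others, and the vector medians were -1.17 and -0.41. The separase gene Espl1 had 212 and 224 CPM in the controls against 146 and 93.3 CPM in the knockdown, and the cytokinesis factor gene Ect2 176 and 182 against 114 and 85.3 CPM. Both were lower in both libraries, and for both the controls were above all 6 other libraries. Ect2 was the 1 of these mitosis genes that DESeq2 called for a difference between overexpression and knockdown effects. DNA replication had -0.04 and -0.58, with 0 of 50 genes higher and 9 lower. The cyclin gene Ccnd1 of that list had 873 and 545 against 492 and 308 CPM. The list medians of the model were -0.46 for mitosis and -0.32 for replication, and the control libraries differed by -0.37 and -0.39 (library 2 minus library 1). Without knockdown library 2 the model medians were -0.07 for mitosis and -0.05 for replication. Without control library 1 they were -0.26 and -0.07.

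Actin cytoskeleton genes and targets of serum response factor (SRF) had medians of -0.05 and -0.55, with 1 of 31 higher (Myl6) and 9 lower (29.0%) in both libraries. The actin crosslinker gene Flna had 887 and 887 CPM in the controls against 616 and 403 CPM in the knockdown, and the adhesion protein gene Vcl 197 and 131 against 116 and 66.6 CPM. Their list median was -0.37, with -0.09 without knockdown library 2 and -0.12 without control library 1, and the control libraries differed by -0.33. Immediate early and MAPK feedback genes had a list median of -0.44, with 1 of 41 higher (Klf10) and 8 lower, but the controls differed by 0.67 and the median was 0.31 without control library 2 and -0.80 without control library 1. The apoptosis-related gene Ier3 of that list had 66.5 and 102 against 32.6 and 52.6 CPM, and the phosphatase gene Dusp4 81.9 and 101 against 59.1 and 47.7 CPM.

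Interferon-stimulated genes had a median of 0.37, with 26 of 53 higher (49.1%) and 4, Ifit1, Ifit3b, Rsad2 and Oasl1, lower (7.55%) in both knockdown libraries. Psmb9, a subunit of the immunoproteasome, had 4.14 and 6.78 CPM in the controls against 20.6 and 10.4 CPM in the knockdown. The peptide transporter gene Tap1 had 41.1 and 60.6 against 97.2 and 117 CPM. The antiviral gene Ifit3b went the other way, with 0.524 and 2.28 against 0.418 and 0.246 CPM, and reached 62.8 and 81.9 CPM with the vector. The same list was far higher outside the shRNA groups, with list medians of 3.29 and 3.98 above the control for the vector and 0.52 and 3.75 for overexpression. The knockdown medians of 0.61 and 0.17 were small beside that spread, and the control libraries differed by 0.46, more than the list median of 0.37. Without knockdown library 1 the list median was 0.17.

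Ribosomal protein genes had small medians of 0.11 and 0.18, with 27 of 78 higher (34.6%) and 2, Rpl18 and Rps2, lower (2.56%) in both libraries. Rpl3 had 800 and 783 CPM in the controls against 902 and 1172 CPM in the knockdown. The controls differed by -0.23 in this list, more than either knockdown median, and reads of ribosomal pseudogenes can blur these counts. Oxidative phosphorylation subunits had medians of 0.15 and 0.08, with 22 of 73 higher (30.1%) and 7 lower (9.59%). Over all genes tested the shares were 15.2% and 14.1%. The complex I subunit gene Ndufa12 had 42.5 and 44.6 against 65.3 and 65.0 CPM. The controls differed by -0.18 there.

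**Figure D5:**
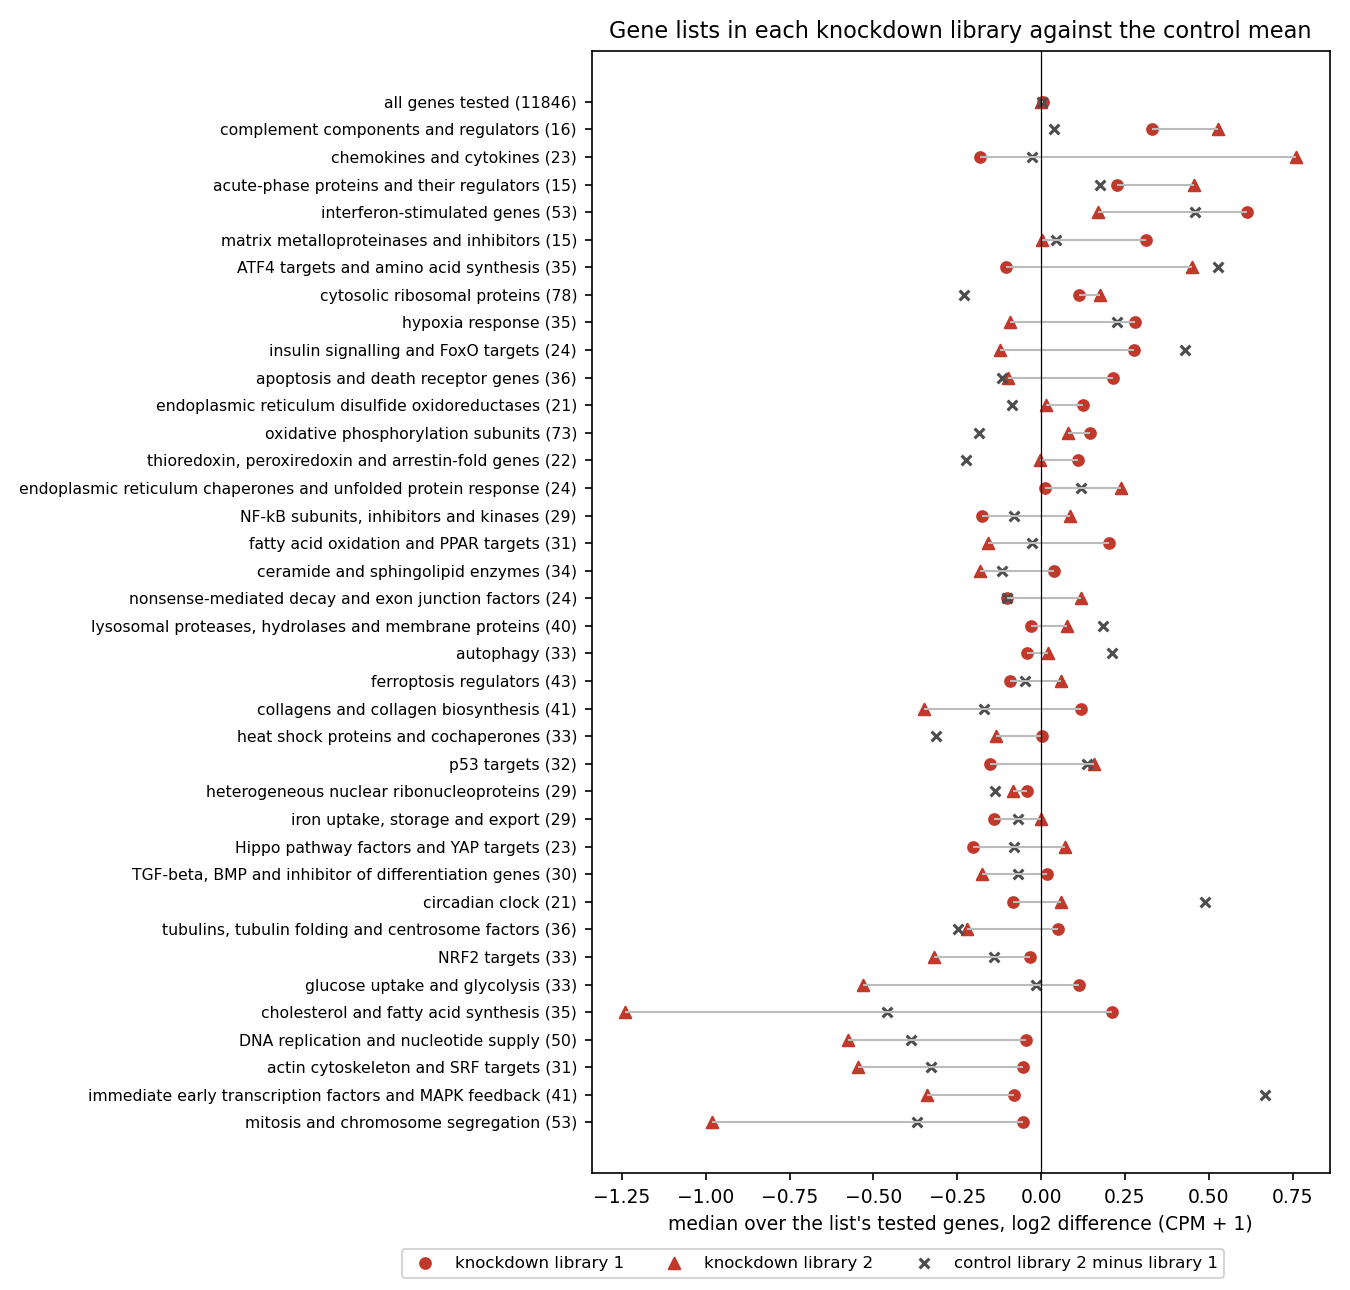
Median log2 difference from the control mean (CPM + 1) over each list's tested genes (number in parentheses), for knockdown library 1 (circles), knockdown library 2 (triangles) and control library 2 minus library 1 (crosses). Complement, acute-phase and interferon genes lie above 0 in both knockdown libraries, whereas cholesterol synthesis is at 0.21 in library 1 and -1.24 in library 2.

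For the other genes of the series title, Hnrnpab had 792 and 477 CPM in the controls against 576 and 515 CPM in the knockdown, inside the control range. Its log2 ratio of -0.22 (SE 0.26) became 0.19 without control library 1. The NF-kB subunit gene Nfkb1 had 98.4 and 97.1 against 103 and 189 CPM (log2 ratio 0.58, SE 0.30), and 0.07 without knockdown library 2. Rela, the other subunit, had 112 and 116 against 112 and 99.5 CPM (log2 ratio -0.11, SE 0.17). Of 29 tested NF-kB subunits, inhibitors and kinases, 4 were higher (Nfkb1, Nfkbie, Ikbkg and Tnip1) and 4 lower (Rel, Ikbkb, Ikbke and Traf6) in both libraries, with a median of 0.04. Of 43 ferroptosis regulators, 2 were higher (Ncoa4 and Chac1) and 3 lower (Gclm, Aifm2 and Ftl1), 4.65% and 6.98%, both under the shares for all genes, with a median of -0.02. Ncoa4, the ferritin autophagy receptor gene, had 94.5 and 83.3 against 103 and 117 CPM. Gclm, which supplies glutathione synthesis, had 105 and 65.3 against 54.6 and 38.4 CPM. Of 29 iron genes, 3 were higher (Ncoa4, Heph and Cp) and 7 lower. The mitochondrial iron importer gene Slc25a37 had 196 and 197 against 101 and 146 CPM, the haem transporter gene Slc48a1 277 and 209 against 180 and 113 CPM, and the ferroxidase gene Heph 1.05 and 1.97 against 4.24 and 2.95 CPM.

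Lists built around the leading genes gave mixed counts, to be read beside 15.2% higher and 14.1% lower over all genes tested. Of 21 endoplasmic reticulum disulfide oxidoreductases, the family of Tmx1, 7 were higher and 3 (Tmx1, Tmx2 and Ero1b) lower, with a median of 0.10. Of 34 ceramide and sphingolipid enzymes, the list of Cerk, 4 were higher (Sptlc2, Asah2, Acer3 and Ormdl3) and 5 lower (Cerk, Cers2, Smpd4, Sgpl1 and Cert1), with the sphingosine phosphate lyase gene Sgpl1 at 210 and 214 against 144 and 153 CPM. Of 24 nonsense-mediated decay and exon junction factors, the list of Smg5, 3 were higher (Gspt2, Xrn1 and Nbas) and 5 lower (Smg5, Upf3a, Upf3b, Casc3 and Etf1), with a median of -0.01. Of 36 tubulin and centrosome genes, the list of Tbcd and Ssx2ip, 4 were higher (Arl2, Pfdn1, Pfdn5 and Pfdn6) and 3 lower (Tbcd, Ssx2ip and Cct2), with medians of 0.05 and -0.22 in the 2 libraries. Of 41 collagen genes, the list of Fkbp10, 3 were higher (Col18a1, P3h4 and Colgalt1) and 9 lower. Col18a1, a basement membrane collagen, had 98.2 and 152 against 243 and 250 CPM, and Col4a1 1001 and 767 against 596 and 462 CPM. Among the 35 ATF4 and amino acid genes, the stress-induced transcription factor gene Ddit3 had 39.5 and 64.2 against 85.5 and 215 CPM, with 3 genes of the list higher (Ddit3, Atf5 and Chac1) and 3 lower (Shmt2, Cars and Mars1).

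The remaining lists had no gene called by edgeR or DESeq2 in the knockdown, apart from those named above. Of 33 glucose uptake and glycolysis genes, 2 were higher (Pdk1 and Pdk4) and 3 lower (Pfkm, Gapdh and Eno1), with medians of 0.11 and -0.53 in the 2 knockdown libraries. Of 35 hypoxia genes, 5 were higher (Adm, Pdk1, Hif1a, Vhl and Fam162a) and 3 lower in both libraries. Of 36 apoptosis and death receptor genes, 8 were higher and 1 lower in both libraries. The death receptor gene Fas had 1.57 and 1.45 against 1.94 and 16.3 CPM, high in knockdown library 2 alone. The inflammatory caspase gene Casp4 had 20.1 and 39.1 against 42.7 and 95.9 CPM.

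Of 32 p53 targets, 3 were higher (Fas, Xpc and Tap1) and 3 lower (Plk3, Pidd1 and Gtse1). Of 33 NRF2 targets, 3 were higher (Gstm2, Gstm5 and Akr1b10) and 5 lower (Gclm, Txnrd1, Gsr, Gsta4 and Abcc1). Of 23 chemokines and cytokines, 3 were higher (Cx3cl1, Cxcl9 and Il18) and 1, Ccl5, lower, with medians of -0.18 and 0.76 in the 2 libraries. Cxcl9, Il18 and Ccl5 had at most 0.984 CPM in any shRNA library, a low level, while Ccl5 had 48.84 and 58.35 CPM with the vector. Of 24 unfolded protein response genes, 3 were higher (Xbp1, Canx and Derl2) and 2 lower (Creld2 and Syvn1). Of 33 heat shock genes, 3 were higher (Hspa13, Dnajb4 and Dnajb5) and 2 lower (Hspa4l and Hsf1). Of 33 autophagy genes, 6 were higher and 6 lower. In each of these 6 lists the model median lay between -0.12 and 0.47.

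Among 29 heterogeneous nuclear ribonucleoproteins, the family of Hnrnpab, 3 were higher (Hnrnpa1, Hnrnpc and Hnrnph2) and 8 lower. Hnrnpl, a splicing factor, had 275 and 267 against 230 and 186 CPM, and Hnrnpc 352 and 319 against 383 and 499 CPM. Of 30 TGF-beta and BMP genes, 4 were higher (Tgfb1, Tgfbr1, Tgfbr3 and Bambi) and 7 lower. The inhibitory Smad gene Smad7 had 26.3 and 38.0 against 12.7 and 15.9 CPM. Of 15 matrix metalloproteinases and inhibitors, 4 were higher (Mmp2, Adamts4, Adamts5 and Adamts12) and 0 lower. Of 23 Hippo pathway genes, 2 were higher (Amotl2 and Arhgef17) and 2 lower (Amotl1 and Ptpn14). Of 24 insulin and FoxO genes 0 were higher and 2 lower (Igf1r and Bcl6), and of 21 clock genes 1 was higher and 2 lower (Hlf and Bhlhe41). Beside these counts, and those of every list above, stand the shares of 15.2% higher and 14.1% lower over all genes. Genes listed here for a small count, beyond those with values, were named after their values were seen.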

How the data were processed

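RNA of HT22 cells was sequenced in 4 groups of 2 libraries. The authors deposited read counts per gene with no normalization, and FPKM values of the same genes. The build was mm10 (GRCm38) and the tools were HTSeq, HISAT2, Trimmomatic, DESeq and Cufflinks, per the submitters' processing notes, without versions, roles or strand setting, so overlapping genes on opposite strands cannot be told apart. FPKM was used only for a level. Counts were scaled with TMM factors and tested with edgeR 4.0.16 (quasi-likelihood, 8 libraries in 1 model, prior count 0.125, 4 residual degrees of freedom, biological coefficient of variation 27.6%), with Benjamini-Hochberg adjustment over 11846 genes. DESeq2 1.42.0 and limma 3.58.1 (voom) under R 4.3.3 were alternatives, and the fits were tested on simulated data. The simulated libraries varied less than the real ones, so they do not show what the fits can detect here. Of the genes, 11813 matched RefSeq (GRCm38.p6) by Entrez identifier for coordinates, and 3′ UTRs came from GENCODE M21.

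Named genes were the 15 with the smallest p in each direction among non-overlapping groups, DESeq2 calls, the genes of the series title, up to 4 per list of 37, the 10 most different each way between knockdown libraries, and the 5 most abundant. Arrdc4, in the promoter count, was added afterwards. The members, lists and motif were chosen with earlier results of these data known. Chi-square per gene (at least 100 counts) was 62.1 between the control libraries and 156.4 between the knockdown libraries, where counting noise alone gives about 1 by construction, and each column was treated as a library of its own. A few list members are not reported here by name.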

Additional observations from a re-analysis of the deposited data

How the results depend on the processing

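edgeR called 0 genes in the knockdown with RLE scaling, with no filter beyond 1 count, with its filterByExpr filter, with only the 4 shRNA libraries, and by limma-voom with quality weights, and DESeq2 called 15. Leaving out 1 library at a time gave 0 to 1 calls. Genes at an unadjusted p under 0.05 numbered 246 by limma-voom and 165 to 1600 when 1 library was left out. For the difference between overexpression and knockdown effects, DESeq2 called 13 genes and leaving out 1 library gave 0 to 1. With the library number as a replicate block, edgeR called 0 genes and 291 passed the unadjusted p. The correlation of the deviations of library 1 in control and knockdown was 0.367, but the labels carry no such numbers, so the samples share only a number of the column names. The share of lower genes with the 3′ UTR site was 57.8% for TTAAGA (34.6% of all genes with a 3′ UTR), 47.9% for CTTAAG (28.1%) and 13.0% for the reversed motif (11.2%), and the counts for both 6-base motifs include genes with the full 7 bases. For the 7 bases (11.5% of all genes) it was 45.5% in the replicate block fit and 14.6% to 38.3% without 1 library. The reversed motif and these refits were added after seeing the data. Over 153 named genes, 1834 of 1836 alternative values kept their sign. The exceptions were Lcn2, at -0.15 without knockdown library 2 (-0.15 to 5.83 when 1 library was left out), and Hnrnpab, at 0.19 without control library 1 (-0.54 to 0.19). Apart from the title genes, these genes were chosen because their knockdown and control groups did not overlap. That choice largely fixes the sign in advance, so the agreement is no test of it. List medians moved by 1 SD or more in 39 of 296 alternatives. The causes were not tested. With 2 libraries a group, differences such as those of Lcn2 or Cxcl1 cannot be separated from the spread between libraries.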
